A study of Mus musculus with 7 samples.

Results

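The Zfp genes described here are the mouse genes whose symbol is Zfp followed by a number and at most 1 letter and that have rows in both the gene table and the exon table of the series. There were 117 such genes among 36666 gene rows, with 1 symbol that matches the pattern left out and not analysed here. A further 205 Zfp symbols had gene values but no exon rows, and 7498 genes in all had exon rows. RNA was measured by mRNA sequencing of cerebral cortex of C57BL/6 mice, at embryonic day 17 (4 samples) and in young adults (3 samples). Both groups are untreated mice of this 1 strain, with no transgene or agent named in the labels, and they differ by age. The labels do not say whether a sample is 1 animal or a pool. The p-values therefore rest on how far the samples of a group are spread, both in the row tested and over all rows tested. All 117 genes passed the filter on low values, with a mean of 170.9 to 15363 reads per sample.

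Zfp stands for zinc finger protein. Most of these genes encode C2H2 proteins, in which pairs of cysteines and histidines hold a zinc ion and shape a small finger that reads a few bases of DNA, and arrays of fingers give each protein its own target sequence. A large subgroup carries a KRAB box, a short domain that binds the co-repressor Trim28 (KAP1), which in turn brings Setdb1, HP1 proteins and histone deacetylases to the bound site. Other members bind RNA, ribosomes or ubiquitin pathway proteins through their fingers, and several are known from the growth of the cortex, among them Zfp238 (also Zbtb18 or RP58), a repressor needed for the differentiation and migration of cortical neurons.

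Most Zfp genes were lower in adult than in embryonic cortex. Of 117 genes, 86 (73.5%) fell and 10 (8.55%) rose at an adjusted p under 0.05 in limma, and 21 did not pass the test. Over all 22828 genes tested, 69.7% were called, 33.9% lower and 35.8% higher in adult cortex, so the share that fell was above the background and the share that rose was below it. Among the 7498 genes with exon rows, from which the Zfp genes were drawn, 80.3% were called, 42.7% lower and 37.6% higher. The median difference, adult minus embryonic on the deposited log2-like scale, was -0.59 for the Zfp genes, 0.03 for all genes tested and -0.07 for genes with exon rows. A difference of 1 on this scale is about 2-fold in genes with many reads, and in genes with few reads it stands for more. The 205 Zfp symbols without exon rows, of which 198 were tested, gave 125 lower and 24 higher with a median of -0.55.

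**Figure D1:**
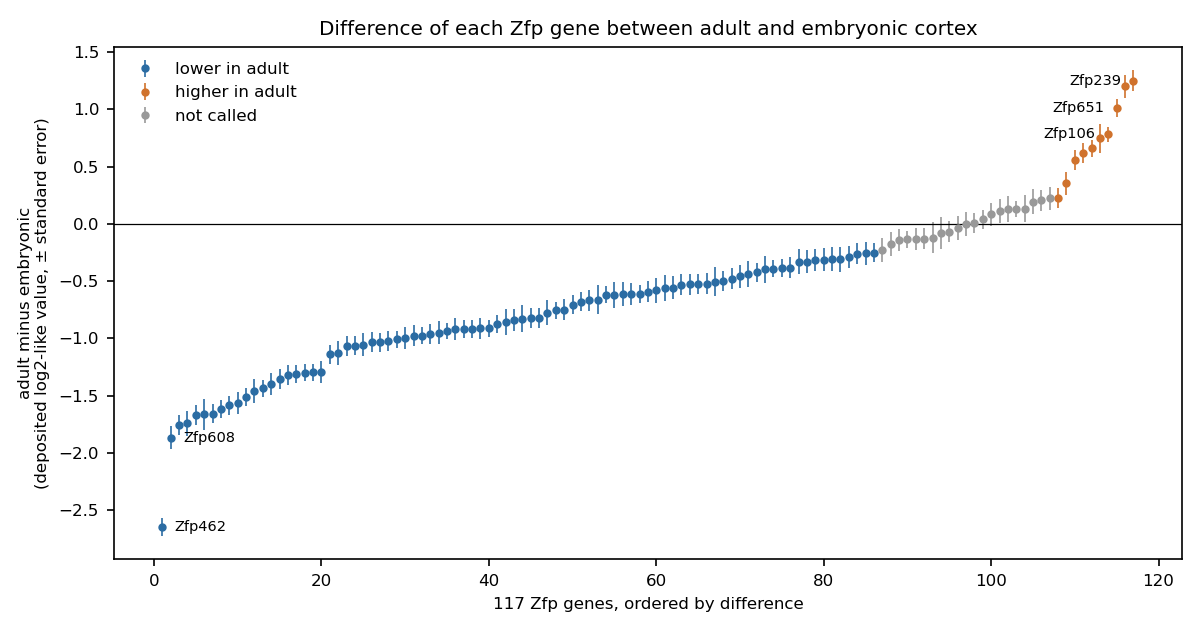
Each point is 1 of the 117 Zfp genes, ordered from the largest decrease to the largest increase; the y axis is the adult minus embryonic difference of the deposited log2-like values, and bars are limma standard errors (4 embryonic and 3 adult samples). The 86 genes called lower fill most of the left side and run down to -2.65 for Zfp462, and the 10 called higher run up to 1.25 for Zfp239.

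The unit of level is CPM, the recovered reads of a gene out of every 1000000 reads assigned to genes. They are not divided by transcript length, so they compare samples for 1 gene and not genes with each other. Summed over the 117 genes, the level was 9025, 8802, 8133 and 9038 CPM in the embryonic samples and 4950, 4813 and 4840 CPM in the adult samples. The groups did not overlap, and the lowest embryonic sum was that of embryonic sample 3. The most read Zfp gene, Zfp238, took part of this: without it the sums were 7206 to 7961 CPM and 4522 to 4616 CPM. The median Zfp gene was at 43.7 to 47.0 CPM in embryonic and 28.8 to 30.8 CPM in adult samples. In 87 genes all adult samples were below all embryonic samples, against 36.3% of all genes tested, and in 9 genes all adult samples were above, against 33% of all genes tested. Of the 117 genes, 29 were called lower by at least 1 and 3 were called higher by at least 1. Over all genes tested, 15.6% were called lower and 21.9% higher by at least 1.

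The samples held 18444272 to 23606525 reads in genes. Embryonic sample 3 held the lowest embryonic level of 60 of the 117 Zfp genes, against 26.99% of all genes tested. Without it 89 Zfp genes were called lower and 11 higher. Cell type markers moved between the groups as well. Summed over fixed lists, 5 genes of dividing progenitors went from 366 to 526 CPM in embryonic samples to 7.11 to 12.1 CPM in adult samples, and 5 genes of young neurons from 5097 to 5553 CPM to 388 to 482 CPM. Mature neuron markers (5 genes) went from 533 to 642 CPM to 9384 to 10298 CPM, oligodendrocyte markers (6) from 48.7 to 51.7 CPM to 3862 to 6915 CPM, astrocyte markers (5) from 45.6 to 51.9 CPM to 575 to 655 CPM and microglia markers (5) from 21.9 to 26.0 CPM to 227 to 245 CPM. Choroid plexus markers (4) went from 0.488 to 1.11 CPM to 564 to 689 CPM, and those of meninges and fibroblasts (4) from 1.28 to 3.09 CPM to 41.9 to 47.8 CPM. Endothelial markers (5, of which 4 were called higher) went from 64.1 to 74.2 CPM to 195 to 203 CPM. Erythroid markers (4, of which 2 were called lower and 0 higher in limma) went from 535 to 805 CPM in embryonic to 196 to 500 CPM in adult samples. The part of these shifts in the Zfp results was not tested, and in bulk tissue fewer cells of a type and less RNA per cell cannot be told apart.

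Of 11 Zfp genes on a list of regulators of neural development and neurons, 8 (72.7%) fell and 3 did not pass the test, with a median difference of -0.50. This share is near the 73.5% of all 117 Zfp genes; over all genes tested it was 33.9%. None rose: the count was 0 in limma, 0 at an unadjusted p under 0.05 and 0 by voom on the recovered counts. Zfp462, a large nuclear protein with 33 fingers that takes part in keeping heterochromatin in embryonic cells (chromosome 4, exon rows starting from 54960817 to 55093538 in mm9), showed the largest decrease of all 117 genes. Its level was 521, 533, 450.0 and 475 CPM in the 4 embryonic samples and 71.0, 76.8 and 73.0 CPM in the 3 adult samples. Every adult sample was well below every embryonic sample, and the mean was 6.72-fold lower in adult cortex (difference -2.65, SE 0.08, limma adjusted p = 3.04e-12). Zfp238 (chromosome 1, exon rows starting from 179372538 to 179375952 in mm9) was at 1064, 994, 927 and 1112 CPM in the 4 embryonic samples and 334, 291 and 315 CPM in the 3 adult samples. The groups were far apart, with a mean 3.27-fold lower in the adult (difference -1.62, SE 0.08, limma adjusted p = 3.68e-10), and Zfp238 was still at 291 CPM or more in every adult sample.

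Zfp608 and Zfp609 are close relatives, and Zfp609 is known as a partner of the cohesin loader Nipbl and the Integrator complex in neural stem cells. Zfp608 was at 119, 128, 98.8 and 109 CPM in the 4 embryonic samples and 27.4, 31.7 and 26.9 CPM in the 3 adult samples, a mean 3.96-fold lower in the adult (difference -1.87, SE 0.10, limma adjusted p = 8.54e-10). Zfp609 was at 196, 202, 177 and 184 CPM in the 4 embryonic samples and 69.0, 73.2 and 73.8 CPM in the 3 adult samples, 2.64-fold lower (difference -1.30, SE 0.07, limma adjusted p = 1.91e-09). In both genes the adult samples lay close together and apart from the embryonic ones. Zfp292, whose human counterpart is linked to intellectual disability, was at 175, 167, 139 and 191 CPM in the 4 embryonic samples and 52.7, 39.99 and 47.6 CPM in the 3 adult samples (difference -1.74, SE 0.11, limma adjusted p = 5.18e-09). Embryonic sample 3 was the lowest of its group for Zfp292 and remained above all adult samples.

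Smaller decreases were measured for 3 further regulators. Zfp335, a nuclear protein needed for the division of neural progenitors, was at 41.7, 42.8, 37.8 and 39.5 CPM in embryonic and 24.6, 27.1 and 28.6 CPM in adult cortex (difference -0.50, SE 0.09, limma adjusted p = 1.47e-04). Zfp644, a partner of the histone methyltransferases Ehmt1 and Ehmt2, was at 94.0, 86.1, 68.1 and 104 CPM in embryonic and 64.4, 59.6 and 57.2 CPM in adult cortex (difference -0.44, SE 0.12, limma adjusted p = 0.00407). The lowest embryonic sample of Zfp644 was only slightly above the highest adult sample. Zfp423, which has 27 fingers and is needed for cerebellar growth, was at 41.9, 39.7, 33.5 and 31.7 CPM in embryonic and 27.9, 28.2 and 22.2 CPM in adult cortex (difference -0.40, SE 0.12, limma adjusted p = 0.00853). Its call was lost without adult sample 3 (difference -0.28, limma adjusted p = 0.0546). The groups overlapped for the last 3 genes of the list. Zfp804a, a gene linked to schizophrenia by human genetics, was at 23.1, 23.0, 20.2 and 27.8 CPM in embryonic and 22.5, 23.6 and 20.01 CPM in adult cortex, which gave a difference of -0.00311 (SE 0.11, limma adjusted p = 0.981). Zfp703, a transcriptional co-repressor in which no classical finger was found by the search, was at 37.1, 37.4, 31.7 and 30.7 CPM in embryonic and 37.7, 33.5 and 31.1 CPM in adult cortex (difference 0.08, SE 0.10, limma adjusted p = 0.486). Zfp148, which binds GC-rich promoters, had means of 129.7 and 103.8 CPM (difference -0.23, SE 0.10, limma adjusted p = 0.0580), and it passed the threshold without embryonic sample 3 (limma adjusted p = 0.00933) and without adult sample 1 (limma adjusted p = 0.0275).

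Zfp191 (now Zfp24), needed in oligodendrocytes for myelination, was at 48.4, 46.4, 41.5 and 49.9 CPM in the 4 embryonic samples and 41.6, 33.8 and 34.3 CPM in the 3 adult samples. The highest adult sample was level with the lowest embryonic sample, so the groups overlapped, and the gene passed the test narrowly (difference -0.26, SE 0.09, limma adjusted p = 0.0241). The call was lost without embryonic sample 1, without embryonic sample 4, without adult sample 2 and without adult sample 3 (limma adjusted p from 0.0630 to 0.0926). Over the same samples the oligodendrocyte marker sum went the other way, as given above. Of the Zfp genes described with pluripotency factors, Zfp219 was at 58.1, 64.4, 47.5 and 48.7 CPM in embryonic and 32.1, 37.7 and 27.0 CPM in adult cortex (difference -0.66, SE 0.13, limma adjusted p = 3.57e-04), without overlap between the groups. Zfp281 was at 55.2, 54.6, 36.6 and 56.7 CPM in embryonic and 49.0, 40.4 and 41.0 CPM in adult cortex and did not pass the test (difference -0.12, SE 0.13, limma adjusted p = 0.441). Without embryonic sample 3, the lowest of its group, Zfp281 was called lower (difference -0.27, limma adjusted p = 0.0190).

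Most KRAB zinc finger genes fell and none was called higher. A KRAB box was found in the reference protein of 30 of the 117 genes with a sequence profile made from KRAB proteins outside the set. Of these 30, 24 (80%) fell, 0 rose in limma and 6 did not pass the test, with a median difference of -0.69. Over all 117 Zfp genes 73.5% fell and 8.55% rose, and over all genes tested 33.9% fell and 35.8% rose. The share of KRAB genes that fell was thus not far above that of the whole Zfp set. The count of increases among the 30 KRAB genes was also 0 at an unadjusted p under 0.05 and 0 by voom on the recovered counts. Of the 87 without a KRAB box, 62 (71.3%) fell and 10 (11.5%) rose, with a median of -0.53. Whether both classes differ was not tested. Zfp81, Zfp68, Zfp157 and Zfp60 showed the largest decreases of the KRAB class, and their targets are not given in the sources used here. Zfp68 was at 92.8, 90.3, 83.9 and 104 CPM in the 4 embryonic samples and 27.5, 26.0 and 27.8 CPM in the 3 adult samples, 3.43-fold lower in the adult (difference -1.66, SE 0.08, limma adjusted p = 4.52e-10). Zfp157 was at 78.2, 74.9, 74.9 and 88.0 CPM in the 4 embryonic samples and 23.9, 22.7 and 26.1 CPM in the 3 adult samples (difference -1.59, SE 0.08, limma adjusted p = 8.50e-10). Both had adult samples within a few CPM of each other and far below the embryonic ones. Zfp81 varied more, with 84.0, 74.1, 72.9 and 98.8 CPM in embryonic and 29.0, 18.6 and 24.9 CPM in adult cortex (difference -1.66, SE 0.13, limma adjusted p = 6.75e-08). Zfp60 fell from a mean of 122.1 to 38.3 CPM (difference -1.56, SE 0.10, limma adjusted p = 4.18e-09), and 7.7% of its stretches of 50 bases also occur in other genes.

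Of the KRAB proteins with a described role, Zfp445, which helps keep genomic imprints, was at 136, 135, 119 and 149.9 CPM in the 4 embryonic samples and 81.4, 71.9 and 78.6 CPM in the 3 adult samples (difference -0.71, SE 0.08, limma adjusted p = 4.03e-06). The lowest embryonic sample was still above the highest adult sample. Zfp354c was at 124, 113, 105 and 131 CPM in the 4 embryonic samples and 47.8, 41.9 and 42.2 CPM in the 3 adult samples, 2.69-fold lower in the adult (difference -1.32, SE 0.09, limma adjusted p = 8.75e-09). The remaining KRAB genes that fell had differences from -1.06 (Zfp334) to -0.25 (Zfp251). The KRAB genes that did not pass the test were Zfp715, Zfp9, Zfp498, Zfp777, Zfp688 and Zfp617, with differences from -0.18 to 0.19.

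Most genes through which KRAB proteins act were lower too. Of 29 genes on a fixed list of KRAB co-repressors and their silencing partners, 25 (86.2%) fell, 1 (3.45%) rose and 3 did not pass the test, with a median difference of -0.90. Over all genes tested, 33.9% were called lower and 35.8% higher. Trim28, the protein that KRAB boxes bind, was at 347, 367, 366 and 332 CPM in the 4 embryonic samples and 100.3, 105 and 102 CPM in the 3 adult samples, 3.45-fold lower in the adult (difference -1.69, SE 0.07, limma adjusted p = 7.82e-11). Setdb1, the H3K9 methyltransferase recruited by Trim28, was at 131, 132, 128 and 133 CPM in the 4 embryonic samples and 44.8, 47.5 and 51.9 CPM in the 3 adult samples (difference -1.34, SE 0.07, limma adjusted p = 1.37e-09). For both genes the samples of a group lay close together and the groups were far apart. Uhrf1, which guides the DNA methyltransferase Dnmt1 to newly copied DNA, had the largest decrease of the list, from 37.0, 42.4, 27.8 and 30.1 CPM to 0.829, 1.82 and 1.19 CPM (difference -4.26, SE 0.20, limma adjusted p = 1.87e-10). Ehmt1, an H3K9 methyltransferase, went from 190.4, 191, 166 and 173 CPM to 38.7, 41.4 and 41.9 CPM (difference -2.04, SE 0.08, limma adjusted p = 3.60e-11). Mphosph8, a subunit of the HUSH silencing complex, was the 1 gene that rose, from 46.7, 39.2, 43.9 and 43.6 CPM to 61.1, 55.1 and 52.7 CPM (difference 0.46, SE 0.09, limma adjusted p = 3.01e-04). Uhrf1 and Dnmt1 are also known from dividing cells, and the markers of dividing progenitors fell over the same samples; their part in this decrease was not tested.

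**Figure D2:**
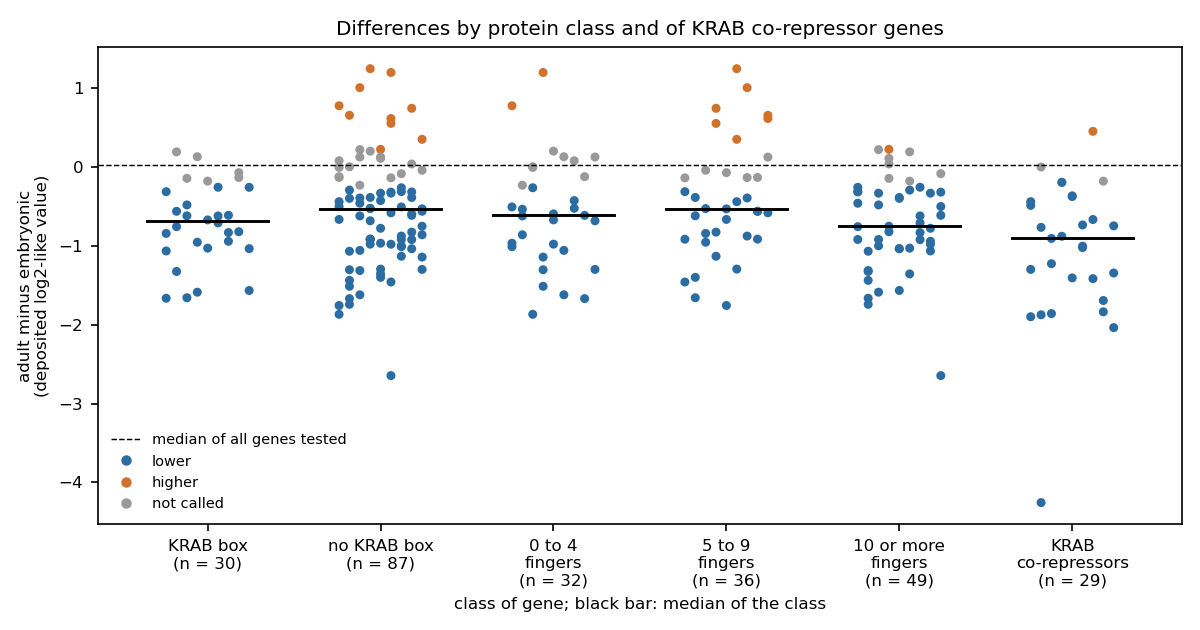
Each point is 1 gene, the y axis is the adult minus embryonic difference of the deposited log2-like values, colours give the limma call, black bars the median of a class and the dashed line the median of all genes tested. No KRAB gene is among those called higher; the medians are -0.69 with and -0.53 without a KRAB box, and -0.90 for the KRAB co-repressors.

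The genes were also split by their number of fingers. By the usual spacing of the paired cysteines and histidines, 32 genes had 0 to 4 fingers, 36 had 5 to 9 and 49 had 10 or more. In the class with 10 or more fingers, 41 (83.7%) fell and 1 (2.04%) rose, with a median difference of -0.75. In the class with 5 to 9 fingers, 23 (63.9%) fell and 7 (19.4%) rose (median -0.53). With 0 to 4 fingers, 22 (68.8%) fell and 2 (6.25%) rose (median -0.60). Over all 117 Zfp genes 73.5% fell and 8.55% rose, and over all genes tested 33.9% fell and 35.8% rose. Of the 10 genes that rose, 7 thus had 5 to 9 fingers, and the 1 with 10 or more was Zfp180, whose groups overlapped (difference 0.23, limma adjusted p = 0.0280). These are counts, and no test was made between the classes.

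Zfp genes that act on RNA, translation or protein turnover held some of the increases. Of 9 such genes, 3 (33.3%) rose, 4 (44.4%) fell and 2 did not pass the test. Over all genes tested 35.8% rose and 33.9% fell, and over the 117 Zfp genes 8.55% rose and 73.5% fell. The share of the 9 that rose was thus near that of all genes tested. Zfp106, an RNA-binding protein needed for the upkeep of motor neurons and muscle, was at 170.0, 174, 169 and 172 CPM in the 4 embryonic samples and 284, 259 and 292 CPM in the 3 adult samples, 1.62-fold higher in the adult (difference 0.78, SE 0.07, limma adjusted p = 1.69e-07). The embryonic samples were close to each other and all adult samples lay above them. Zfp385a (Hzf), an RNA-binding protein with fingers of the double-stranded RNA type, was at 33.6, 34.1, 35.9 and 30.2 CPM in the 4 embryonic samples and 73.5, 83.9 and 64.1 CPM in the 3 adult samples, 2.21-fold higher (difference 1.202, SE 0.10, limma adjusted p = 1.08e-07). Zfp91, a ubiquitin ligase of the NF-kappa-B pathway, was at 101.1, 94.4, 87.2 and 98.0 CPM in the 4 embryonic samples and 158, 129 and 129 CPM in the 3 adult samples (difference 0.62, SE 0.09, limma adjusted p = 2.25e-05), and 8.5% of its stretches of 50 bases also occur in other genes, mainly Cntf. The decreases were in Zfp207 (BuGZ), a spindle and splicing protein, Zfp326, which links splicing to transcript elongation, Zfp746 (PARIS), a parkin substrate, and Zfp598, which marks collided ribosomes. Zfp207 was at 224, 223, 205 and 242 CPM in embryonic and 102, 85.0 and 98.6 CPM in adult cortex (difference -1.14, SE 0.08, limma adjusted p = 1.80e-08), and Zfp326 at 67.4, 69.2, 66.2 and 72.0 CPM in embryonic and 30.6, 30.8 and 33.9 CPM in adult cortex (difference -1.01, SE 0.08, limma adjusted p = 3.37e-08). Zfp746 went from a mean of 43.9 to 26.6 CPM (difference -0.62, SE 0.08, limma adjusted p = 4.82e-06) and Zfp598 from 57.3 to 37.2 CPM (difference -0.53, SE 0.09, limma adjusted p = 1.40e-04), each without overlap. Zfp346, which binds double-stranded RNA, had a difference of 0.00579 (SE 0.08, limma adjusted p = 0.956). Zfp622, a factor of large ribosomal subunit maturation, had a difference of 0.20 (SE 0.09, limma adjusted p = 0.0665) and passed without embryonic sample 3 (limma adjusted p = 0.0459) and without adult sample 1 (limma adjusted p = 0.0196).

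The remaining increases were in genes outside these lists. The largest increase of all was in Zfp239 (chromosome 6, exon rows starting from 117813095 to 117820274 in mm9), at 16.7, 15.2, 14.2 and 16.7 CPM in the 4 embryonic samples and 38.6, 35.3 and 34.8 CPM in the 3 adult samples, 2.31-fold higher in the adult (difference 1.25, SE 0.09, limma adjusted p = 2.14e-08). Zfp651 was at 56.4, 54.8, 57.9 and 52.3 CPM in the 4 embryonic samples and 99.1, 114 and 105 CPM in the 3 adult samples, 1.91-fold higher (difference 1.01, SE 0.08, limma adjusted p = 5.49e-08). In both genes all adult samples stood clearly above all embryonic samples. Zfp771 was at 19.1, 21.4, 22.2 and 16.96 CPM in embryonic and 27.2, 37.9 and 31.3 CPM in adult cortex (difference 0.75, SE 0.12, limma adjusted p = 1.03e-04). Zfp523, a relative of the promoter-binding factor Zfp143, was at 65.2, 68.6, 65.4 and 63.6 CPM in embryonic and 92.7, 104 and 98.6 CPM in adult cortex (difference 0.66, SE 0.08, limma adjusted p = 2.58e-06). Smaller increases were measured in Zfp187 (now Zscan26), from a mean of 41.7 to 58.0 CPM (difference 0.56, SE 0.09, limma adjusted p = 7.04e-05), and in Zfp787, from 13.1 to 15.98 CPM (difference 0.35, SE 0.10, limma adjusted p = 0.00715). With each sample centred on its median, the call of Zfp787 was lost (difference 0.17, limma adjusted p = 0.142). The same centring lowered every difference by 0.18, the gap of the group medians over the genes tested, and left 8 Zfp genes called higher and 93 lower.

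Among the remaining genes, Zfp704 (chromosome 3, exon rows starting from 9427010 to 9609270 in mm9) was at 306, 270.2, 239 and 297 CPM in the 4 embryonic samples and 79.9, 86.1 and 78.7 CPM in the 3 adult samples, 3.41-fold lower in the adult (difference -1.67, SE 0.09, limma adjusted p = 8.95e-10). Zfp422, which shares 6.5% of its stretches of 50 bases with other genes, was at 79.8, 79.0, 67.2 and 73.5 CPM in the 4 embryonic samples and 22.0, 19.2 and 19.7 CPM in the 3 adult samples, 3.69-fold lower (difference -1.76, SE 0.09, limma adjusted p = 4.29e-10). Neither gene's groups came near each other. At the other end, the smallest differences of all were those of Zfp804a and Zfp346, given above, and of Zfp687. The level of Zfp687 was 33.2, 43.0, 35.2 and 31.8 CPM in embryonic and 32.2, 33.3 and 32.5 CPM in adult cortex (difference -0.04, SE 0.10, limma adjusted p = 0.755). The groups of Zfp687 overlapped, and embryonic sample 2 was above the rest.

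**Figure D3:**
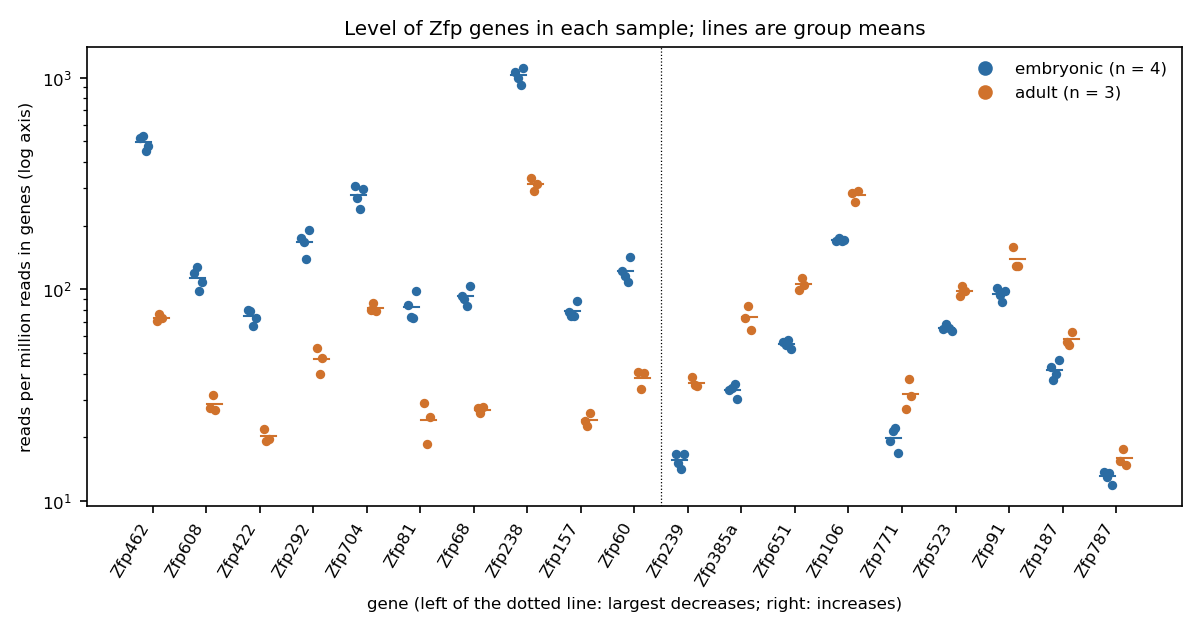
Points are the level of a gene in each sample in CPM on a log axis (not divided by length), blue for the 4 embryonic and orange for the 3 adult samples, with a line at each group mean. Left of the dotted line are the 10 largest decreases and right of it the 9 increases whose groups do not overlap, which is how these genes were chosen; Zfp462 goes from means of 495 to 73.6 CPM and Zfp239 from 15.7 to 36.2 CPM.

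Zfp genes lie in clusters, and chromosome 7 held 29 of the 117, of which 23 (79.3%) fell and 3 rose, near the share of all Zfp genes. Related Zfp genes share sequence, and reads that fit more than 1 place can be lost or assigned to the wrong gene. In 10 genes more than 5% of the stretches of 50 bases of the annotated transcripts also occur in another gene, led by Zfp617 (41.5%, mainly Gm18180) and Zfp414 (26.3%, mainly Gm20507); their values are less certain. Of these 10, 7 (70%) fell and 1 (10%) rose. In the 88 genes with no exon of another gene over them on either strand in the basic set of GENCODE M21, 67 (76.1%) fell and 6 (6.82%) rose, with a median of -0.67. These shares are near those of all 117 Zfp genes, of which 73.5% fell and 8.55% rose. Over all genes tested 33.9% fell and 35.8% rose.

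The exon table gives, for each exon row, a value that rises as the exon's share of its gene's reads falls, and the share in percent was computed from it. The 117 genes had 728 exon rows, a median of 5 and at most 32 per gene. The row with the largest share was the 3'-most row in 92 of the 112 genes with at least 2 rows. It was so in 64 of 69 genes whose fingers are all encoded in the last coding exon, with a median largest share of 100%, and in 28 of the other 43, with a median of 50%. Large shares are rounded coarsely, with no step between 50% and 100%, so 100% does not mean that all reads fell in that row. A long last exon that holds the finger array is the usual gene structure of the family.

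Few exon rows changed their share. Of 707 rows tested, 19 in 17 genes were called (2.69%), against 1.96% of all 84961 exons tested, a share near the background. In 13 the share was larger in adult cortex (0.997% of all exons) and in 6 it was smaller (0.959% of all exons). Of 105 5'-most rows tested, 7 were called, 5 of them with a larger share in the adult, and 4 of the 19 called rows were the 3'-most. How often outermost rows were called over all genes was not computed, so these counts have no background beside them. The first row of Zfp385a is among these 7 and the last row of Zfp652 among these 4. With 1 or 2 reads in embryonic samples, both rows passed the filter of a mean of 5 reads only through the adult samples, so they had to differ. Their values are given as a description. The calls in Zfp420 and Zfp61, which are also 3'-most rows, rest on a single step of the deposited value, from 50% to 100%. Large shares are rounded coarsely in the deposited values, so these calls cannot be given a size.

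Of the named rows that had a mean of at least 5 reads in both groups, the largest difference was near the 5' end of Zfp385a. Its second row from the 5' end, which starts at position 103163496 of chromosome 15 (mm9, minus strand), held 0.645%, 0.649%, 0.787% and 1.08% of the gene's reads in the 4 embryonic samples and 5.88%, 7.14% and 6.25% in the 3 adult samples. That is 4 to 7 reads in each embryonic sample and 89 to 146 reads in each adult sample. All adult shares were above all embryonic ones (difference -7.80 on the deposited exon scale, SE 0.40, limma adjusted p = 8.17e-05), and the call held under all 12 alternatives tried. The first row, at 103164662, held 0.162%, 0.130%, 0.131% and 0.306% of the gene's reads in the 4 embryonic samples and 0.769%, 0.758% and 0.893% in the 3 adult samples, on 1 or 2 reads in embryonic and 13 to 15 reads in adult samples. The third row, at 103150721, did not pass the test, with shares of 4% to 5.88% over the 7 samples, and neither did rows 4 to 8. The level of the gene was 2.21-fold higher in the adult over the same samples.

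**Figure D4:**
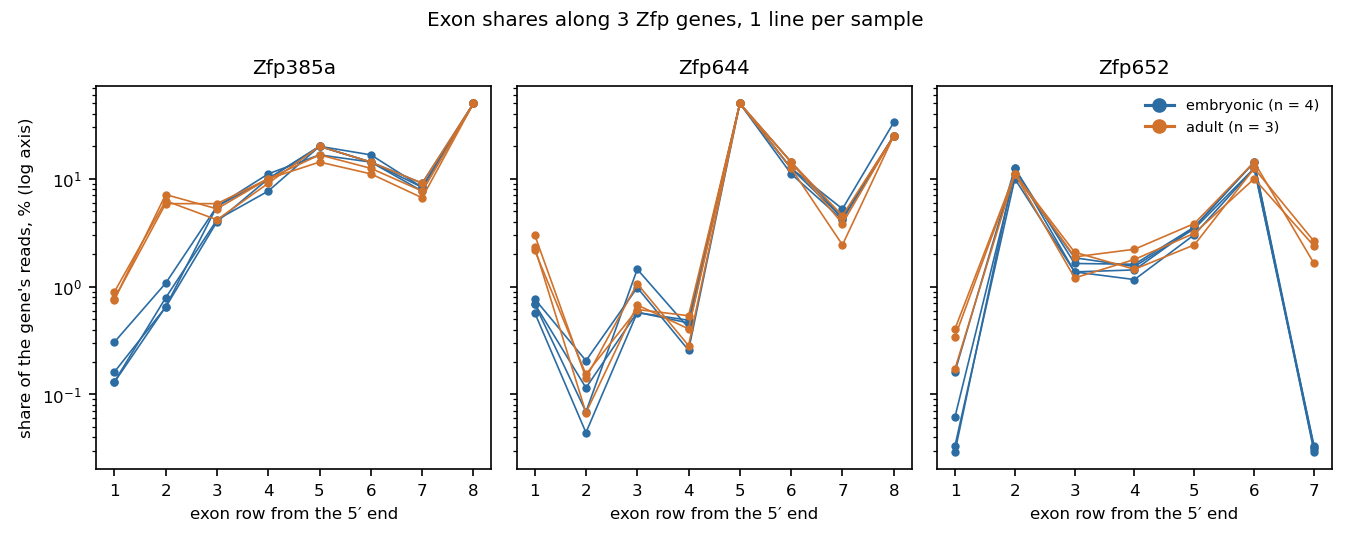
The x axis counts the exon rows of a gene from its 5' end, the y axis is the share of the gene's reads in percent on a log axis, and each line is 1 sample (blue, 4 embryonic; orange, 3 adult). In Zfp385a the lines part at rows 1 and 2, in Zfp644 at row 1 and in Zfp652 at row 7, the last, while the other tested rows of these genes run together. Row 1 of Zfp385a and row 7 of Zfp652 passed the read filter only through the adult samples, so they had to differ.

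RefSeq lists 2 starts for Zfp385a, on the minus strand of chromosome 15 in GRCm38.p6. Their promoters, from 250 bases before to 50 bases after the start, are shown because the share of the second row differed between the groups. The promoters of Zfp644 and of the first start of Zfp238 are shown because the share of their first rows differed. First rows were also called in Zfp157, Zfp710 and Zfp617, whose promoters are not shown. Capitals mark GGGCGG (the GC box), CCAAT, CCGGAAGT or TGACGTCA on either strand. The exon rows are in mm9 and the promoters in GRCm38.p6, and no position was carried from one to the other, so which start a row belongs to was not assigned.
Zfp385a promoter, chr15:103340037-103340336, minus strand: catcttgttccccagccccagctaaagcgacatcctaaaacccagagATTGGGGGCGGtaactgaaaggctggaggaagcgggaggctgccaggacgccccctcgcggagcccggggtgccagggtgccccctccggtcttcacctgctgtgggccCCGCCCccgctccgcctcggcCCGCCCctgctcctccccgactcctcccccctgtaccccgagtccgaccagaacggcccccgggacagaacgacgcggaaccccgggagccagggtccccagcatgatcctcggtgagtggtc
Zfp385a promoter, chr15:103334289-103334588, minus strand: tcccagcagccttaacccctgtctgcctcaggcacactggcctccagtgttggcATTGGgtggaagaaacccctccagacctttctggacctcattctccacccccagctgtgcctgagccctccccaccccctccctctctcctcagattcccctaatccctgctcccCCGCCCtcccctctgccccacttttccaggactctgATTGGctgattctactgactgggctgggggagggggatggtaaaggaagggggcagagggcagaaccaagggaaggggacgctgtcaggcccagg
Zfp644 promoter, chr5:106696781-106697080, minus strand: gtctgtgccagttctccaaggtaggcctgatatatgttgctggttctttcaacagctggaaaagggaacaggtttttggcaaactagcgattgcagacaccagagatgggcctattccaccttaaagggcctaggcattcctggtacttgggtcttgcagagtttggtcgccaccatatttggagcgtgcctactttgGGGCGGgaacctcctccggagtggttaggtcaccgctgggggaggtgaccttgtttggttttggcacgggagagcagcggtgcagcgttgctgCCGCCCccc
Zfp644 promoter, chr5:106696476-106696775, minus strand: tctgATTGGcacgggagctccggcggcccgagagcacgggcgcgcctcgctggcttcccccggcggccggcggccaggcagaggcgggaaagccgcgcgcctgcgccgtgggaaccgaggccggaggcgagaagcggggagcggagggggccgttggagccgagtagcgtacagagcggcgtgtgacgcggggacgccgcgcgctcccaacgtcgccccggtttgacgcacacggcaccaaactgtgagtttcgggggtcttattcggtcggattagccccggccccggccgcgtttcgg
Zfp238 promoter, chr1:177442101-177442400, plus strand: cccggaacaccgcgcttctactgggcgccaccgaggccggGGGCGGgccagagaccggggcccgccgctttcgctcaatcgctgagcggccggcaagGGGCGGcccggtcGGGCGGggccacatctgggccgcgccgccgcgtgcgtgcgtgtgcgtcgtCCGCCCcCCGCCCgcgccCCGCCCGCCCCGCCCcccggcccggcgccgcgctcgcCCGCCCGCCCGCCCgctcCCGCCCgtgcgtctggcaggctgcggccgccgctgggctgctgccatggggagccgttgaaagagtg

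The first Zfp385a promoter has 70% G and C and 23 CpG pairs, and the second has 62.3% and 2. Both hold a GC box and a CCAAT box by this search. The Zfp238 promoter shown has 81.7% G and C and 51 CpG pairs. RefSeq also lists later starts for Zfp238, not shown here. Their promoters have 38.3% to 43.7% G and C, 1 to 3 CpG pairs and no GGGCGG. Over the 129 RefSeq promoters found for 97 of the 117 genes, the median was 19 CpG pairs and 60% G and C, against 7 and 52.7% over all 32851 promoters of the same length. GGGCGG was found on either strand in 51.9% of the Zfp promoters and 35.7% of all promoters, CCGGAAGT in 10.1% and 3.89%, and CCAAT in 35.7% and 37.4%. A match is a description of these letters and not a binding site. The promoters of Zfp genes that fell (92 promoters of 70 genes) had GGGCGG in 48.9%, and those of genes that rose (13 promoters of 10 genes) in 53.8%.

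Changes were also called in the first rows of Zfp238 and Zfp644. The first of the 2 rows of Zfp238, at position 179372538 of chromosome 1 (mm9), held 0.735%, 0.704%, 0.690% and 0.448% of the gene's reads in the 4 embryonic samples and 2.13%, 3.12% and 3.03% in the 3 adult samples (difference -4.36 on the deposited exon scale, SE 0.48, limma adjusted p = 0.00449). Embryonic sample 4 was the lowest and every adult sample was above every embryonic one. The gene's level fell over the same samples, and the row's reads were 108 to 158 in embryonic and 162 to 220 in adult samples. The first row of Zfp644, at 107125253 of chromosome 5 (mm9), held 0.694%, 0.769%, 0.690% and 0.575% of the gene's reads in the 4 embryonic samples and 2.33%, 3.03% and 2.17% in the 3 adult samples (difference -3.83 on the deposited exon scale, SE 0.39, limma adjusted p = 0.00308), on 10 to 15 and 28 to 43 reads.

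The last row of Zfp652, at 95691747 of chromosome 11 (mm9), held 0.0325%, 0.0295%, 0.0333% and 0.0309% of the gene's reads in the 4 embryonic samples and 2.38%, 1.64% and 2.63% in the 3 adult samples. That is 1 read in each embryonic sample and 29 to 46 reads in each adult sample. Of the stretches of 50 bases of the annotated transcripts of Zfp652, 11.95% also occur in other genes, mainly Phospho1. In the basic set of GENCODE M21, no exon of Phospho1 lies over an exon of Zfp652. Phospho1 itself had 1, 2, 1 and 2 reads in the embryonic samples and 111, 99 and 90 reads in the adult samples. The row moved with Phospho1, and the part of Phospho1 reads in it was not tested.

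In 5 other genes, 6 named rows were called. In Zfp617, whose level did not pass the test, the first row held 4.76%, 5%, 4% and 4.17% of the gene's reads in the 4 embryonic samples and 1.69%, 2.33% and 2.38% in the 3 adult samples (difference 3.35 on the deposited exon scale, SE 0.45, limma adjusted p = 0.0111), a smaller share in the adult. Of the stretches of 50 bases of Zfp617, 41.5% also occur in other genes, mainly Gm18180, so its shares are less certain. Its second row, at 74453037 of chromosome 8 (mm9), went from a mean of 4.91% to 2.69%. The last row of Zfp318, at 46557364 of chromosome 17 (mm9), went from a mean of 2.18% to 6.03%, that of row 18 of 20 in Zfp280d from 1.53% to 3.63%, and the first rows of Zfp710 and Zfp157 from 0.875% to 2.36% and from 1.64% to 3.53%. In all of these the groups did not overlap, as the rule for naming them required. The call of Zfp318 was lost without embryonic sample 2, adult sample 1 or adult sample 2 (limma adjusted p up to 0.0751). That of Zfp280d was lost without any 1 of 5 samples (embryonic 1, 2 and 4, adult 1 and 2), up to an adjusted p of 0.126, and that of Zfp710 without any of the 7, up to 0.163 in limma. Those of Zfp157 and of the second row of Zfp617 were lost without any of the samples but adult 3, up to limma adjusted p values of 0.101 and 0.122.

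**Figure D5:**
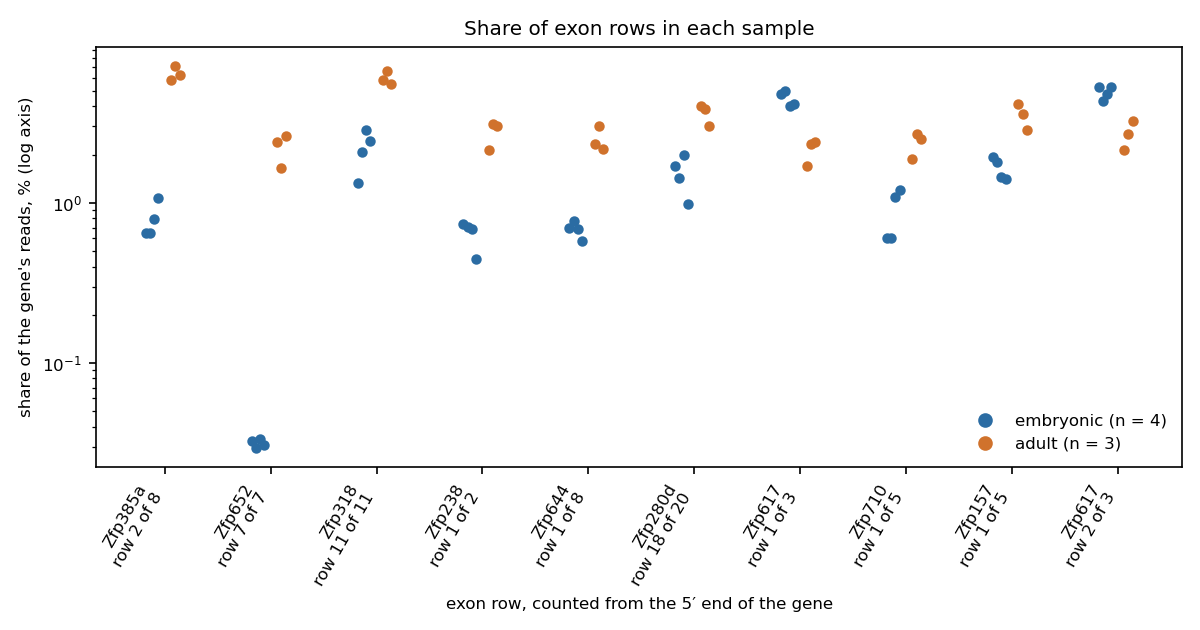
Points are the share of a gene's reads in 1 exon row, in percent on a log axis, in each of the 4 embryonic (blue) and 3 adult (orange) samples, for the 10 named rows ordered by the size of their difference. The adult share is larger in 8 rows and smaller in both rows of Zfp617. The row of Zfp652, which passed the read filter only through the adult samples, goes from a mean of 0.0316% to a mean of 2.22%.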

How the data were processed

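RNA from 7 cortex samples was trizol-extracted and sequenced after library preparation with an Illumina mRNA kit, per the labels' protocols. The submitters' processing notes name the mm9 build and, in no stated order, SAMtools 0.1.7a, HTSeq 0.5.3p3, TopHat 1.0.13, Bowtie 0.12.7.0 and CASAVA 1.7.1. The strand setting of the counting is not given there. The deposited gene values are variance-stabilized by the authors on a log2-like scale. The deposited exon values are a score, headed 1 over a ratio and variance-stabilized by the authors, with a higher score for a smaller share of the gene.

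Both kinds of value step through whole numbers. Read counts of genes were recovered from the deposited log2-like values, with 99.9945% or more within 0.1 of a whole number in every sample. The lowest steps pass by construction. The exon score steps as gene reads divided by exon reads, rounded: of 91326 values that could show it, 99.97% did so, against 20.3% after gene reads were moved by up to 200. Shares are 100 divided by that number, with 0 taken as 1, and are coarse when large. CPM and shares describe levels, and tests used the deposited values. The count recovery and the tests were checked on simulated data.

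Adult was compared with embryonic cortex (3 against 4 samples, no covariate) with limma 3.58.1 in R 4.3.3 (lmFit, eBayes with a trend), two-sided tests and Benjamini-Hochberg adjustment over all 22828 genes or all 84961 exons tested, at 0.05. Genes without reads in more than 3 samples were left out, as were exons under a mean of 5 estimated reads or alone in their gene. Counts of 2 samples of a group differed beyond counting noise in every pair (chi-square over its degrees of freedom from 5.11 to 19.0), so none was a copy of another. Alternatives were no filter, no trend, centred samples, voom on recovered counts, diffSplice, log2 shares, the replicate number as a block and each sample left out.

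Proteins, fingers, overlaps and shared stretches came from GENCODE M21 (110 genes by symbol, 7 by an older symbol), promoters from RefSeq on GRCm38.p6, which is not the build of the files; positions were never converted. KRAB boxes were found with a profile of 119 windows of 42 residues in pyhmmer 0.12.3, at an E-value up to 0.001. Members, lists and tests were chosen with earlier results of these data known. Genes named are the 10 largest called decreases and increases without overlap between the groups, all genes of the role lists, and the 3 smallest differences among genes with at least 100 reads. Exon rows named are the 10 largest called differences without overlap and with a mean share of at least 1% in 1 group. Zfp180, Zfp334, Zfp251, Zfp414, Zfp420, Zfp61 and the KRAB genes without a call were named after their values were seen, as were Trim28, Setdb1, Phospho1 and exon rows 1 and 3 of Zfp385a.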

Additional observations from a re-analysis of the deposited data

Results flagged for a closer look

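Of 51 groups of embryonic values checked among the named genes and exon rows, 2 had 1 sample far from the others by Dixon's test, and chance alone flags about 1 in 20. Zfp281 was at 36.56 CPM in embryonic sample 3, against 54.6 to 56.7 CPM in the other embryonic samples, a gap of 0.899 of the group's range. The first exon row of Zfp238, at position 179372538, held 0.4484% of the gene's reads in embryonic sample 4, against 0.690% to 0.735% in the others, a gap of 0.841 of the range.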

How the results depend on the processing

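The direction of the Zfp set did not turn under any of the 12 alternatives for genes. Of the 86 genes called lower and the 10 called higher, 77 and 8 kept their call under all 12, and 0 were called in the opposite direction. The median difference of the Zfp genes, -0.59, was -0.77 with samples centred on their medians and -0.70 in voom on the recovered counts, and -0.61 to -0.56 with single samples left out. With single samples left out, 80 to 89 Zfp genes were called lower and 9 to 12 higher. Of the 41 named genes, 31 kept direction and call under all alternatives. The reversals were in genes near 0: Zfp804a at 0.072 with the replicate block and -0.067 to 0.072 with single samples left out, Zfp703 at -0.10 with centred samples and -7.11e-04 in voom, Zfp346 at -0.18 with centred samples, -0.0056 with the replicate block, -0.080 in voom and -0.049 to 0.034 with single samples left out, and Zfp687 at -0.096 to 0.052 with single samples left out. The cause was not tested.

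Exon calls depended on the test. Over all exons, 847 had a larger and 815 a smaller share, against 186 and 116 with the replicate block and 2203 and 1781 in diffSplice, which sets each exon against the rest of its gene. For the Zfp exons, 13 and 6 became 4 and 0 with the replicate block in limma (43 smaller shares at an unadjusted p under 0.05) and 23 and 26 in diffSplice. With single samples left out, all exons gave 527 to 1077 larger and 489 to 998 smaller shares, and Zfp exons 6 to 19 and 1 to 8. Counts were lowest without adult sample 2 for larger Zfp shares (6), and highest without adult sample 3 (19 and 8). Of 10 named exon rows, 2 kept their call under all 12 alternatives, those of the second row of Zfp385a and the last row of Zfp652, and the latter was tested only through its adult reads. The first rows of Zfp238, Zfp644 and Zfp617 kept theirs without any 1 sample (limma adjusted p up to 0.0240, 0.0152 and 0.0416) but lost it with the replicate block (limma adjusted p = 0.127, 0.0962 and 0.187). The cause was not tested.

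Whether the replicate numbers of the labels pair the samples was not settled. Deviations of samples with the same number correlated at 0.009, 0.057 and 0.041 across genes, and those of other pairs at -0.047 to -0.003. Every one of the 3 pairs with the same number was the highest for its samples. The correlations are small, and they cannot decide whether the numbers mark a pairing. The block leaves embryonic sample 4 alone in its block, so that sample adds nothing to the difference. With the block, 84 Zfp genes were lower and 10 higher.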
